A study of Mus musculus with 18 samples.

Results

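The stefin A cluster genes Stfa1, Stfa2, Stfa2l1, Stfa3 and Cstdc5 are 5 of the 41079 genes in the count tables of an RNA-seq study of mouse bone marrow cells. They were selected on their measured counts, because these stood much higher after treatment with RE than with DMSO. Their levels after RE are therefore given as a description without a test, in both genotypes. No numerical threshold came with that choice. RNA was counted in cKit+ bone marrow cells that were wild type (WT) or carried AE9a, a shortened AML1-ETO oncoprotein in which RUNX1 is joined to RUNX1T1. Both genotypes received DMSO, the solvent control, or the compounds C16 or RE, with 3 libraries in each of 6 groups and 18 in all. The study was about blocking WDR5 and MLL1, which act in histone methylation, but the targets, doses and exposure times of C16 and RE are not stated. The labels also do not give the strain or age of the mice, how AE9a was introduced, or whether replicates came from separate animals, so p-values may measure only a technical spread between libraries. Each genotype has its own count table, and a batch may follow genotype.

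Stefins are small proteins of the cystatin superfamily that stay inside the cell and block cysteine proteases of the papain family, such as cathepsins B, L, S and H. The human genome has one stefin A gene, CSTA, whereas the mouse carries a cluster of stefin A copies side by side. Stefin A transcripts are known in neutrophil precursors of the bone marrow and in skin. Stefin B, encoded by Cstb on another chromosome, is the other cytosolic stefin, and cystatin C (Cst3) and cystatin F (Cst7) are secreted or vesicular relatives.

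In the count tables (GRCm39) the members lay on chromosome 16 within 298.6 kb, from the start of Stfa2l1 at 35977181 to the end of Stfa3 at 36275754. Stfa2l1 (35977181 to 35982318) and Stfa1 (36097510 to 36105733) were on the plus strand. Cstdc5 (36179744 to 36187932), Stfa2 (36224308 to 36228725) and Stfa3 (36270899 to 36275754) were on the minus strand. Each had 3 exons, and 0 members overlapped an exon of another gene. Between them and up to 500 kb beyond lay 6 other stefin A-like genes and 34 other genes.

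The coding sequences parted the members into pairs, which matters for every value below because fragments from near-identical copies can be assigned to the wrong gene. Identity over the aligned coding sequence was 98.0% between Stfa1 and Cstdc5 and 96.5% between Stfa2 and Stfa2l1. The other 8 of the 10 member pairs lay between 73.4% and 81.7%, with Stfa3 as the member without a close partner. The first 90 coding bases show both the pairs and the difference at the start (transcripts of GENCODE release M21, GRCm38). Capitals mark bases that differ, position by position, from Stfa1 in Cstdc5 and from Stfa2 in Stfa2l1 and Stfa3.
Stfa1: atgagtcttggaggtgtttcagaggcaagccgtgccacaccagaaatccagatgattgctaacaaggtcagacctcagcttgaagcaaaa
Cstdc5: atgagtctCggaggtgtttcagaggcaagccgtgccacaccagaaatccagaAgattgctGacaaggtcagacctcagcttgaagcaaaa
Stfa2: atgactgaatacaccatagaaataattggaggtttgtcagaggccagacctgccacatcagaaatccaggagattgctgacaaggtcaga
Stfa2l1: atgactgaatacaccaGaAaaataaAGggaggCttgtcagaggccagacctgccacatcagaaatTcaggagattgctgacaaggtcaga
Stfa3: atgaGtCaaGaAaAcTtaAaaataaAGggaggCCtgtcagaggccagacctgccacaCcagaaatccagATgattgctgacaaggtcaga
Cstdc5 differed from Stfa1 at 3 of these 90 bases, Stfa2l1 from Stfa2 at 6 and Stfa3 from Stfa2 at 14. Stfa1 and Cstdc5 encode 97 residues, and Stfa2, Stfa2l1 and Stfa3 encode 103. Of all 100-base stretches of each member's transcript, 5.6% in Stfa1 and 13.1% in Cstdc5 occurred without a mismatch in another stefin A-like transcript. In Stfa2, Stfa2l1 and Stfa3 that share was 0%, and over 150 bases it was 0% in all 5 members. At 50 bases the shares were 26.9% in Stfa1, 33.5% in Cstdc5, 14.7% in Stfa2, 16.8% in Stfa2l1 and 0% in Stfa3. The reads themselves, which would show how many fragments fitted several copies, were not used here.

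The 90 bases before the annotated start of each member, where the basal transcription machinery assembles, are shown because the members' levels moved together (RefSeq, GRCm38.p6, written 5′ to 3′ along the gene's strand). Capitals mark matches to the motifs named after them.
Stfa1 (chr16:36277058-36277147, plus strand): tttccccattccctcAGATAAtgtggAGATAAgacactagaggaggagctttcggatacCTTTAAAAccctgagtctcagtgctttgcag
Cstdc5 (chr16:36367571-36367660, minus strand): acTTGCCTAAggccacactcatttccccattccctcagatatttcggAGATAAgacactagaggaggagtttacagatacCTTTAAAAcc
Stfa2 (chr16:36408364-36408453, minus strand): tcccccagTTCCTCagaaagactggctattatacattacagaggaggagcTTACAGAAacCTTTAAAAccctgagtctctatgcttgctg
Stfa2l1 (chr16:36156721-36156810, plus strand): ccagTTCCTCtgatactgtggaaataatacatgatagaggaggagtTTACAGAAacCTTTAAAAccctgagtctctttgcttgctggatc
Stfa3 (chr16:36455393-36455482, minus strand): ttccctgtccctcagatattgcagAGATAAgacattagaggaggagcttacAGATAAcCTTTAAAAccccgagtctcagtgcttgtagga
Motifs were searched on both strands from 250 bases before to 50 after the start, in these 5 and in all 32851 RefSeq promoters. GAGGAA, the core of sites for the myeloid factor PU.1, occurred in 5 of 5 members and in 28.3% of all promoters. TGTGGT, the core of sites for RUNX factors, occurred in 5 of 5 and in 16.8%. TTNNGNAA, a form of the C/EBP site, occurred in 4 of 5, all but Stfa3, and in 40.7%. AGATAA, bound by factors such as GATA1, occurred in 3 of 5 (Stfa1, Cstdc5 and Stfa3) and in 11.2%. The common TATA box, TATAAA, occurred in 0 of 5 and in 13.6%. The run CTTTAAAA, picked after the sequences had been seen, occurred in 5 of 5 and in 2.6%. It began 30 to 34 bases before the start in 4 members and 10 before it in Cstdc5. Over the 250 bases before the start, members were 69.2% to 89.4% identical, highest for Stfa2 and Stfa2l1, so their matches are not independent of one another.

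The libraries held 16053727 to 27207748 fragments assigned to genes. Runx1t1, the fusion partner that marks AE9a cells, stood at 33.4 to 46.2 CPM (fragments relative to the TMM-scaled library size) in AE9a cells under DMSO or RE and at 2.44, 4.22 and 0.211 CPM under C16, against at most 0.388 CPM in WT cells. The transcript of Kit, the surface receptor used for the selection, stood at 221 to 1620 CPM in AE9a and at 59.6 to 213 CPM in WT libraries. Some libraries stood apart from their groups. WT replicate 2 differed from WT replicates 1 and 3 under each treatment, by 0.86 to 1.16 in root mean square log2 CPM over all tested genes. The third AE9a library under C16 lay 0.66 and 0.69 from the first and the second, which lay 0.35 from each other. WT replicate 2 under C16 lay 0.7 to 0.74 from the AE9a libraries under C16, nearer than its 1.11 and 1.16 from the other WT libraries under C16. Results that rest on these libraries are given with and without them.

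By group means per length, Stfa1 and Cstdc5 were the most abundant members in 6 of 6 groups. Stfa3 was the least abundant in 5 and Stfa2 in AE9a cells under C16. Under DMSO in AE9a cells, the mean level per kilobase of transcript was 6.14 ± 2.26 CPM for Stfa1, 4.56 ± 2.55 for Cstdc5, 3.93 ± 0.904 for Stfa2l1, 0.862 ± 0.138 for Stfa2 and 0.281 ± 0.251 for Stfa3 (SD, n = 3). Stfa1, Cstdc5 and Stfa2l1 did not differ beyond their spread in that order, whereas every library had less Stfa2 than any of the 3. Lengths ran from 412 bases in Stfa3 to 441 in Cstdc5, so the order is the same without the length. In WT replicates 1 and 3 under DMSO the order was another one, with Stfa2l1 at 4.11 and 2.92 CPM, level with or above Stfa1 at 1.78 and 2.92 CPM and Cstdc5 at 2 and 1.92 CPM. In 17 of 18 libraries the summed level of the members stayed between 1.59 and 97 CPM, and in WT replicate 2 under RE it reached 1280 CPM.

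**Figure D1:**
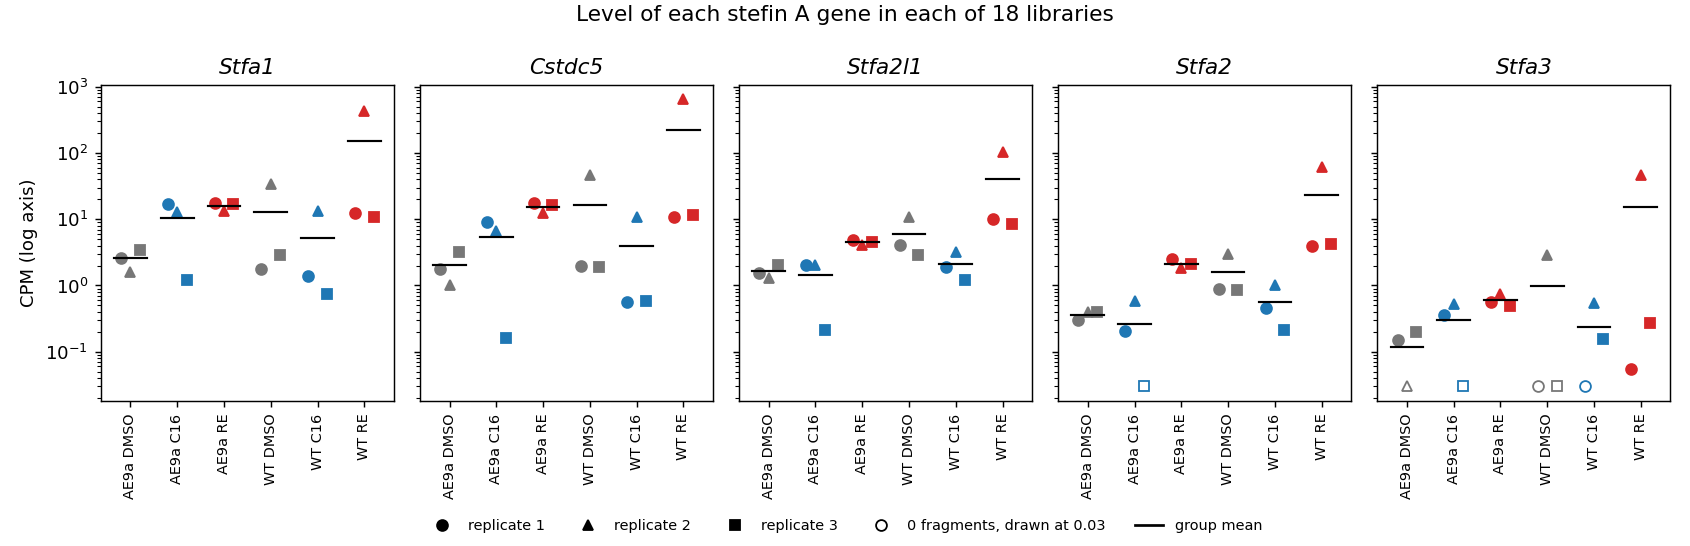
CPM of each stefin A gene (panels, log axis) in each library, by genotype and treatment (x axis). Symbols give the replicate, colours the treatment (grey DMSO, blue C16, red RE), black lines the group mean, and open symbols libraries with 0 fragments. WT replicate 2 (triangles) is the highest WT library for every member and treatment, and AE9a replicate 3 under C16 (blue square) is the lowest of its group.

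In AE9a cells, RE libraries held more of every member than DMSO libraries. Stfa1 had 2.63, 1.6 and 3.48 CPM under DMSO and 17.6, 13.1 and 17.1 CPM under RE. All 3 RE libraries lay above all 3 DMSO libraries, and the fitted log2 difference was 2.62 ± 0.82 (edgeR estimate ± SE, n = 3). Cstdc5, its close copy, went from 1.78, 1.02 and 3.23 CPM to 17.3, 12.5 and 16.5 CPM, with a log2 difference of 2.94 ± 0.92. Stfa2l1 had 1.54, 1.31 and 2.04 CPM under DMSO and 4.9, 4.09 and 4.53 CPM under RE. Its log2 difference of 1.44 ± 0.49 was the smallest of the 5. Stfa2 was rarer, with 6, 11 and 8 fragments under DMSO (0.297, 0.399 and 0.398 CPM) and 44, 41 and 39 under RE (2.48, 1.82 and 2.13 CPM). It differed by 2.48 ± 0.5 on the log2 scale. Stfa3 had only 3, 0 and 4 fragments under DMSO and 10, 17 and 9 under RE, and its fitted difference of 2.44 ± 0.88 rests on these few counts. For 5 of 5 members the groups did not overlap. RE libraries lay wholly above DMSO libraries for 27.6% of the 14704 genes tested in AE9a cells, and 28.8% of those genes were called in either direction at an adjusted p under 0.05. As the members were chosen for this contrast, nothing is read from their count. Cell markers moved in the same libraries. The sum of 12 monocyte and macrophage markers was 824 to 1066 CPM under DMSO and 524 to 644 CPM under RE, and 7 of the 12 fell by edgeR (median log2 -0.96). That of 10 mast cell and basophil markers was 9929 to 13597 CPM under DMSO and 16957 to 19560 CPM under RE, with 0 of 10 called (median log2 0.56). Their part in the members' levels was not tested. In bulk libraries, fewer or more cells that express a gene cannot be told apart from less or more RNA per cell.

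In WT cells under RE the same direction appeared within each replicate number, at very different levels. Stfa1 had 1.78, 34.3 and 2.92 CPM under DMSO and 12.4, 426 and 10.8 CPM under RE. Replicates 1 and 3 under RE lay above replicates 1 and 3 under DMSO but below replicate 2 under DMSO, so the groups overlapped. Within replicate numbers Stfa1 stood 6.99, 12.4 and 3.69 times higher under RE. Such ratios take libraries of the same number as a pair, which is not settled for WT replicate 1 under RE. Cstdc5 had 2, 46.1 and 1.92 CPM under DMSO and 10.8, 646 and 11.5 CPM under RE, or 5.41, 14 and 6 times as much. Stfa2l1 went from 4.11, 10.7 and 2.92 CPM to 10.2, 104 and 8.38 CPM, or 2.47, 9.74 and 2.86 times as much. Stfa2 went from 0.888, 2.98 and 0.857 CPM to 3.88, 60.7 and 4.3 CPM, or 4.37, 20.4 and 5.01 times as much. Stfa3 had 0, 53 and 0 fragments under DMSO and 1, 723 and 5 under RE, so that only replicate 2 gives a ratio, of 15.9. It did not pass the filter on low counts in WT cells, and the other 4 members did.

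The fitted log2 differences in WT cells were 3.53 ± 1.88 for Stfa1, 3.74 ± 2.1 for Cstdc5, 2.79 ± 1.04 for Stfa2l1 and 3.86 ± 1.23 for Stfa2. Without the 3 libraries of WT replicate 2 they were 2.29 for Stfa1, 2.5 for Cstdc5, 1.4 for Stfa2l1 and 2.21 for Stfa2. If replicate 2 was left out under RE alone and kept under DMSO, Stfa1 came to -0.17 and Cstdc5 to -0.59. In this comparison 0.0266% of the 15046 tested genes were called, 0 higher and 4 lower.

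**Figure D2:**
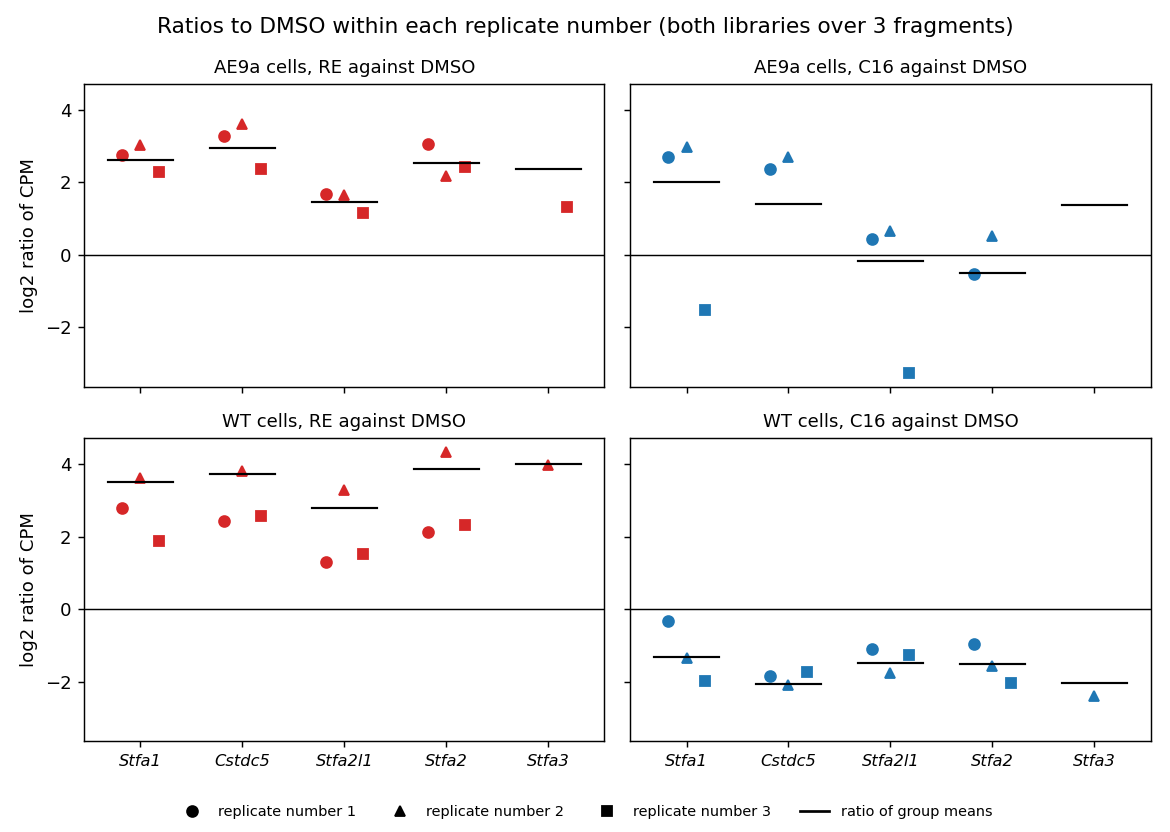
Log2 ratio of CPM to the DMSO library of the same replicate number (y axis) for each member (x axis), by genotype (rows) and compound (columns). Symbols give the replicate number and black lines the ratio of group means. A ratio is drawn only where both libraries held more than 3 fragments. All drawn RE ratios lie above 0, all WT ratios under C16 lie below 0, and in AE9a cells under C16 replicate 3 lies below 0 while replicates 1 and 2 of Stfa1 and Cstdc5 lie above 2.

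The excess in WT replicate 2 differed between members, and the summed levels of several cell type lists also stood apart in those libraries. Relative to the mean of WT replicates 1 and 3 under the same treatment, replicate 2 held 14.6, 12.5 and 36.7 times as much Stfa1 under DMSO, C16 and RE. For Cstdc5 these ratios were 23.6, 19.2 and 58. They were smaller for the other pair, at 3.04, 2.03 and 11.2 for Stfa2l1 and 3.41, 3.03 and 14.8 for Stfa2. The summed level of 30 genes of maturing neutrophils, all 30 of which had fragments, was 2.74, 1.5 and 5.31 times as high in replicate 2. The sum of 9 genes of a primary granule list, with Calr and Serpinb1a among them, was 2.24, 2.89 and 2.08 times as high. That of 12 monocyte and macrophage markers was 2.18, 2.06 and 2.79 times as high. Megakaryocyte and platelet markers went the other way, with summed levels of 394, 316 and 558 CPM in replicate 2 against 2615 to 10927 CPM in WT replicates 1 and 3. Erythroid markers summed to 27.4, 7.59 and 39.6 CPM in replicate 2 and to 44.4 to 133 CPM in the others. Of 9 keratinocyte markers, Krt5, Krt14, Sprr1a and Dsg3 had 0 fragments in every library, and the summed level of all 9 was 6.31 to 12.2 CPM in the 18 libraries. The part of the cell make-up in the members' levels was not tested.

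**Figure D3:**
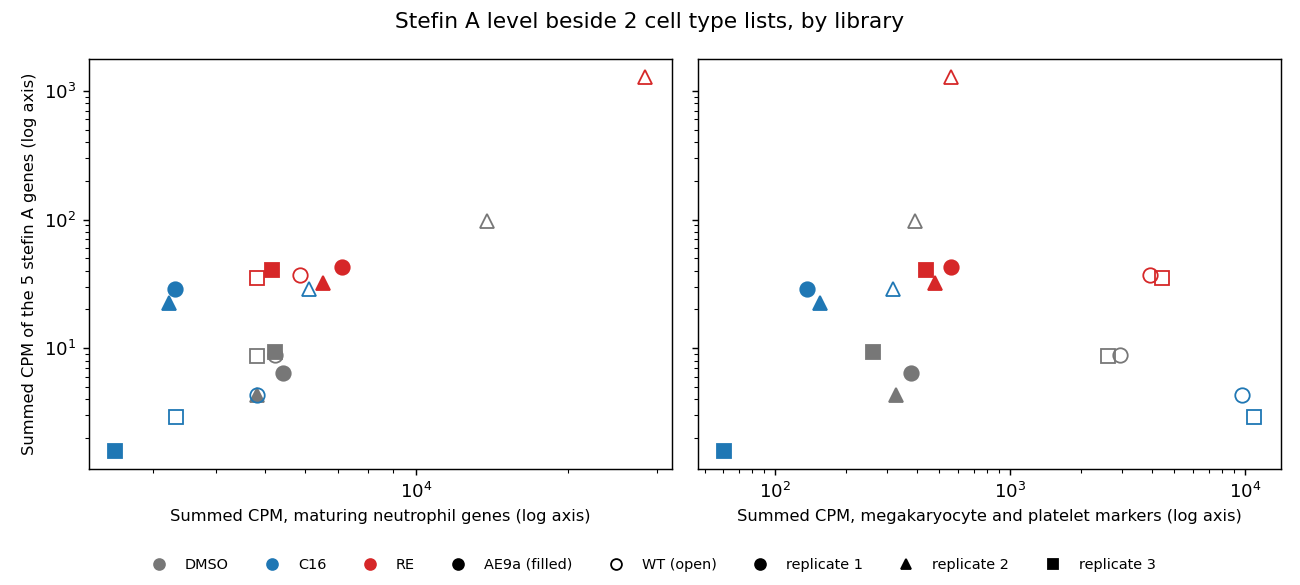
Summed CPM of the 5 members (y axis, log) against the summed CPM of maturing neutrophil genes (left) and of megakaryocyte and platelet markers (right; both log axes), 1 point per library. Filled symbols are AE9a, open symbols WT, colours the treatment and shapes the replicate. WT replicate 2 under DMSO and RE lies far to the upper right on the left panel, whereas AE9a replicates 1 and 2 under C16 combine high member levels with low neutrophil sums.

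C16 was compared with DMSO in the same way, and since this contrast was not the one that chose the members, it was tested. It shares its DMSO libraries with the RE contrast, so it is not independent of that choice. Low values in these libraries would raise both differences. In AE9a cells Stfa1 had 17.1, 12.7 and 1.22 CPM under C16 against 2.63, 1.6 and 3.48 CPM under DMSO. Replicates 1 and 2 lay above every DMSO library and replicate 3 below all of them. The log2 difference was 2 ± 0.82 (n = 3) and did not pass the test (edgeR quasi-likelihood, adjusted p = 0.07). Cstdc5 had 9.17, 6.64 and 0.159 CPM under C16 against 1.78, 1.02 and 3.23 CPM under DMSO, with a log2 difference of 1.40 ± 0.96 (edgeR adjusted p = 0.24). Replicate 3 under C16 held 3 fragments. Stfa2l1 had 2.07, 2.05 and 0.211 CPM under C16 and differed by -0.18 ± 0.54 (edgeR adjusted p = 0.79). Stfa2 had 4, 14 and 0 fragments under C16 and differed by -0.42 ± 0.67 (edgeR adjusted p = 0.6), and Stfa3 had 7, 13 and 0 fragments and differed by 1.49 ± 0.98 (edgeR adjusted p = 0.21). Stfa2 and Stfa3 were in this fit through the RE libraries, the ones that chose them: neither passed the low-count filter on the AE9a DMSO and C16 libraries alone.

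Of the 5 members, 0 were called by edgeR for C16 in AE9a cells, where 66% of all tested genes were called. At an unadjusted p under 0.05 there was 1 (Stfa1), DESeq2 called 1 (Stfa1, log2 1.95, adjusted p = 0.0287) and limma-voom 0. Their median log2 difference, Stfa2 and Stfa3 included, was 1.40, against 0 over all genes tested. Without the third C16 library, Stfa1 was called by edgeR at 2.52 ± 0.28 (adjusted p = 8.27e-05) and Cstdc5 at 1.96 ± 0.4 (adjusted p = 0.00336). Stfa3, at 2.02 ± 0.7, also had an adjusted p under the threshold, but from few fragments and in a fit that it entered through the RE libraries, so that nothing is read from it. In that fit 64.6% of all genes were called. Stfa2l1 stood at 0.3 ± 0.22 and Stfa2 at 0.09 ± 0.45 there, neither called, and both changed sign. The third library had 0.211 CPM of Runx1t1. Its sum of 10 mast cell and basophil markers was 307 CPM, against 1807 and 2315 CPM in the other C16 libraries and 9929 to 13597 CPM under DMSO. Erythroid markers summed to 1.8 CPM in it, against 33.4 and 24.6 CPM in the other C16 libraries and 542 to 711 CPM under DMSO. Maturing neutrophil genes summed to 3323, 3225 and 2528 CPM under C16 and to 4830 to 5443 CPM under DMSO, opposite in direction to Stfa1 and Cstdc5 in replicates 1 and 2. Whether the cell make-up of these libraries set the members' levels was not tested.

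In WT cells every member measured with more than 3 fragments stood lower under C16 than under DMSO within each replicate number. Stfa1 had 1.41, 13.4 and 0.736 CPM under C16 against 1.78, 34.3 and 2.92 CPM under DMSO, or 0.793, 0.391 and 0.252 times as much. Cstdc5 had 0.554, 10.9 and 0.579 CPM against 2, 46.1 and 1.92 CPM, or 0.277, 0.235 and 0.302 times as much. Stfa2l1 stood at 0.466, 0.296 and 0.414 times and Stfa2 at 0.51, 0.338 and 0.245 times its DMSO level. Stfa3 had 0, 11 and 3 fragments under C16 and 0, 53 and 0 under DMSO. Because replicate 2 was higher under both treatments, the groups overlapped for all of them. The log2 differences were -1.31 ± 1.79 for Stfa1, -2.05 ± 2.03 for Cstdc5, -1.48 ± 1.05 for Stfa2l1 and -1.47 ± 1.26 for Stfa2 (n = 3).

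By edgeR 0 of the 4 tested members were called for C16 in WT cells, where 2.96% of all genes were called, and 0 had an unadjusted p under 0.05. limma-voom called 0, and DESeq2 gave 0 of the 4 an adjusted p. With the replicate number as a block, 1 was called, Cstdc5 at -2.14 ± 0.4 (edgeR adjusted p = 0.0118), while 24.2% of all genes were. Without the 3 libraries of WT replicate 2, 4 of 4 were called by edgeR, with 42.2% of all genes: Stfa1 at -1.12 ± 0.34 (adjusted p = 0.0241), Cstdc5 at -1.77 ± 0.26 (adjusted p = 0.000291), Stfa2l1 at -1.15 ± 0.27 (adjusted p = 0.00593) and Stfa2 at -1.36 ± 0.41 (adjusted p = 0.0214). Leaving replicate 2 out under DMSO alone turned Stfa1 to 1.14 and Cstdc5 to 1.03.

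Whether the C16 response of the members differed between genotypes was asked by an interaction term in the fit of all 18 libraries. This term uses the DMSO libraries of both genotypes, which took part in the choice of the members. It is therefore not independent of that choice in any of the settings below. The difference of the log2 responses (AE9a minus WT) was 3.35 ± 2.1 for Stfa1, 3.49 ± 2.41 for Cstdc5, 3.48 ± 3.31 for Stfa3, 1.34 ± 1.29 for Stfa2l1 and 1.08 ± 1.7 for Stfa2. By edgeR 0 of 5 passed (adjusted p = 0.28 to 0.68), 0 had an unadjusted p under 0.05, limma-voom called 0, and DESeq2, which gave only Stfa2l1 an adjusted p, called 0. Of all genes 13% passed. With the replicate number as a block, Stfa1 (3.29 ± 1.08, edgeR adjusted p = 0.0376) and Cstdc5 (3.55 ± 1.19, adjusted p = 0.0398) passed, with 36.6% of all genes. Libraries of the same number correlated more weakly between AE9a DMSO and C16 than in WT cells. Whether the Stfa1 and Cstdc5 responses were called different between genotypes thus depended on the block. Without AE9a C16 replicate 3 and all WT replicate 2 libraries, a setting chosen after the data had been seen, the differences of Stfa1 (3.71 ± 0.54), Cstdc5 (3.8 ± 0.64) and Stfa2l1 (1.52 ± 0.36) passed, with edgeR adjusted p of 0.000147, 0.000392 and 0.00285 and with 49.3% of all genes.

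The genotypes themselves were compared under C16, a contrast that compares no DMSO or RE library, and under DMSO. The fit and its filter used all 18 libraries, and Stfa2 and Stfa3 did not pass the filter on the 6 C16 libraries alone. Under C16 the AE9a minus WT difference was 1 ± 1.45 for Stfa1, 0.42 ± 1.67 for Cstdc5, 0.37 ± 2.3 for Stfa3, -0.52 ± 0.93 for Stfa2l1 and -1 ± 1.25 for Stfa2. By edgeR 0 of 5 were called (adjusted p = 0.54 to 0.91), where 35% of all genes were, and 0 had an unadjusted p under 0.05, with 0 by limma-voom and, of the 1 member with an adjusted p, 0 by DESeq2. Without WT replicate 2, Stfa1 (3.28 ± 0.94, edgeR adjusted p = 0.0115) and Cstdc5 (3.25 ± 1.15, adjusted p = 0.0301) were called as higher in AE9a cells, with 65% of all genes called. Leaving out AE9a C16 replicate 3 as well, Stfa1 stood 3.79 ± 0.37 and Cstdc5 3.8 ± 0.46 higher (edgeR adjusted p = 2.52e-06 and 1.39e-05), with 64.3% of all genes called. Stfa3, at 2.48 ± 0.98, had an adjusted p under the threshold there, but nothing is read from it, since it entered the fit through other groups. In that setting Stfa2l1 and Stfa2 changed sign, to 0.41 and 0.3, and were not called.

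Under DMSO the members stood lower in AE9a cells by fitted log2 differences of -1.86 ± 0.91 (Stfa2l1), -2.08 ± 1.11 (Stfa2), -2.35 ± 1.53 (Stfa1), -3.07 ± 1.76 (Cstdc5) and -3.11 ± 2.31 (Stfa3). By edgeR 0 of 5 passed (adjusted p = 0.15 to 0.35), where 26.7% of all genes did, 0 had an unadjusted p under 0.05, limma-voom called 0, and DESeq2 called 0 of the 1 member with an adjusted p. Stfa3 did not pass the filter on the 6 DMSO libraries alone, so nothing is read from its value. The DMSO libraries also took part in the choice of the members, so this contrast is not independent of it. Without WT replicate 2, Stfa1 and Cstdc5 came to 0.09 and 0.01, Stfa3 turned to 4.16 ± 2.7, on 0 fragments in both remaining WT libraries, and Stfa2l1 and Stfa2 stayed lower at -1.11 and -1.23, with 0 called. A fit of the 6 DMSO libraries alone called Stfa2l1 (adjusted p = 0.0428) and Stfa2 (adjusted p = 0.0447), with 30% of all genes called. Genotype and count table, and any batch that follows them, cannot be told apart.

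The relative amounts of the close pairs also moved. The ratio of summed Stfa1 and Cstdc5 to summed Stfa2 and Stfa2l1, a measure picked after the levels had been seen and given without a test, was 2.41, 1.53 and 2.76 in AE9a cells under DMSO. It was 11.5, 7.38 and 6.5 under C16 and 4.73, 4.34 and 5.05 under RE. The 3 groups did not overlap, and the third C16 library, low in every member, kept a high ratio on 26 and 4 fragments. In WT cells replicates 1 and 3 had ratios of 0.756 and 1.28 under DMSO, 0.83 and 0.926 under C16 and 1.66 and 1.76 under RE. WT replicate 2 had 5.89, 5.82 and 6.51, above every other WT library.

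**Figure D4:**
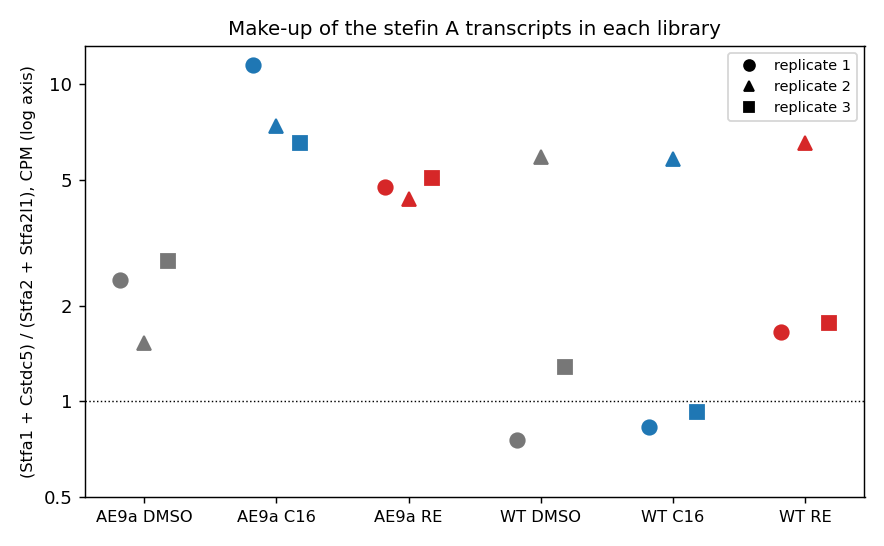
Ratio of the summed CPM of Stfa1 and Cstdc5 to that of Stfa2 and Stfa2l1 (y axis, log) in each library, by group (x axis); shapes give the replicate and colours the treatment. AE9a libraries under C16 lie between 6.5 and 11.5, above the RE libraries (4.34 to 5.05) and the DMSO libraries (1.53 to 2.76), and WT replicate 2 lies between 5.82 and 6.51.

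Among the 10 pairs of members, the correlation of log2 CPM over 18 libraries ran from 0.75 (Stfa2 and Stfa3) to 0.98 (Stfa1 with Cstdc5, and Stfa2 with Stfa2l1). Over all libraries the highest values belonged to the pairs with the most alike coding sequence. Within the 9 WT libraries both pairs were at 0.99. Within the 9 AE9a libraries they were at 0.95 and 0.93, and less alike pairs reached the same range: Stfa2l1 with Cstdc5 was at 0.95, and Stfa3 with Stfa1 and with Cstdc5 at 0.94. These points share libraries and depth, WT replicate 2 weighs heavily in them, and fragments exchanged between copies were not measured.

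**Figure D5:**
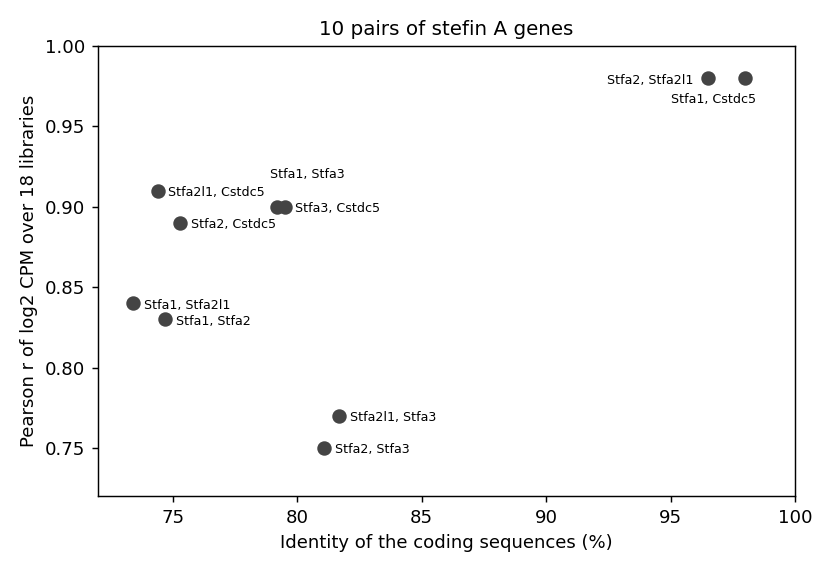
Pearson r of log2 CPM over 18 libraries (y axis) against identity of the coding sequences in percent (x axis) for the 10 pairs of members. Both pairs above 96% identity lie at 0.98, and the other pairs lie between 0.75 and 0.91.

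The 6 other stefin A-like genes of the locus were not chosen, but some followed the members. Cstdc4, between Stfa2l1 and Stfa1, had 83, 77 and 158 fragments in AE9a cells under DMSO, 259, 240 and 12 under C16 and 281, 256 and 260 under RE. Its log2 difference for RE was 1.47 ± 0.83 (edgeR adjusted p = 0.24). In WT cells it had 189, 960 and 153 fragments under DMSO and 440, 5546 and 388 under RE (log2 2.49 ± 1.53, edgeR adjusted p = 1). Csta2, whose coding sequence is 96.9% identical to that of Cstdc4, differed by 0.6 ± 0.6 for RE in AE9a cells (edgeR adjusted p = 0.5) and by 1.68 ± 1.05 in WT cells (edgeR adjusted p = 1). Csta3 and Cstdc6 reached 160 and 95 fragments in WT replicate 2 under RE and at most 20 in any other library. Csta1 and Cstdc3 had at most 2 fragments in any library. For RE in AE9a cells edgeR called 0 of the 2 of these genes that could be tested, with 0 at an unadjusted p under 0.05 and 0 by DESeq2 and limma-voom. Since near-identical copies can exchange fragments, the 11 genes were also summed. The ratio of RE to DMSO means was 3.6 for this sum in AE9a cells and 8.68 in WT cells, against 5.78 and 11.8 for the 5 members, and that of C16 to DMSO means was 1.74 and 0.318, against 2.65 and 0.317. Without WT replicate 2, the RE ratios in WT cells were 2.83 for the 11 genes and 4.17 for the 5 members, and the C16 ratios 0.28 and 0.415. With replicate 2 left out under RE alone, the RE ratios were 0.936 and 0.951, so that they turned.

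Of 34 other genes within 500 kb, 17 were tested in AE9a cells, where 2 rose and 1 fell (median log2 0.13, against -0.01 over all genes), with 28.8% of all genes called. Golgb1, a Golgi matrix protein gene, rose by 0.31 ± 0.05 (edgeR adjusted p = 0.0015), Hcls1, which encodes a haematopoietic actin-binding protein, by 0.2 ± 0.03 (adjusted p = 0.0013), and Slc49a4 fell by 0.32 ± 0.11 (adjusted p = 0.043). Slc49a4 no longer passed when DMSO replicate 1 or any one RE library was left out. Under C16 in AE9a cells 5 of the 17 rose and 6 fell, a share like the 66% of all genes called. Among them was Slc15a2, a peptide transporter gene, at a log2 difference of -2.27 ± 0.21 (15.3 ± 3.38 to 3.25 ± 0.728 CPM, n = 3, edgeR adjusted p = 1.1e-05).

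The targets and relatives of stefin A were read from lists of 11 cysteine cathepsin and legumain genes and 20 other cystatin superfamily genes, of which 3 could be tested. In AE9a cells under RE, where the members stood higher, Cstb rose by 0.55 ± 0.05 (150 ± 6.14 to 227 ± 3.82 CPM, n = 3, edgeR adjusted p = 0.00021). Cst7 fell by 0.2 ± 0.05 (edgeR adjusted p = 0.014), and Cst3 did not pass. Of the 11 cathepsin genes 1 rose and 2 fell, a share like the 28.8% of all genes called. Ctso rose by 0.41 ± 0.11 (edgeR adjusted p = 0.023). Ctsc, whose product activates the granule serine proteases, fell by 0.51 ± 0.1 (498 ± 70.7 to 359 ± 24.5 CPM, edgeR adjusted p = 0.0079). Ctsz fell by 0.2 ± 0.06 (edgeR adjusted p = 0.04). The median over the 11 was -0.25. The fit of all 18 libraries called 0 of the 11 and lost Cst7. Cst7 was also lost without AE9a DMSO replicate 1 or RE replicate 3, and without DMSO replicate 1 or 3 or RE replicate 2 or 3 the cathepsin genes that rose and fell came to 0 and 1. In WT cells under RE, edgeR called 0 of the 3 cystatin and 0 of the 11 cathepsin genes, with 0 at an unadjusted p under 0.05 in either list and 0 by DESeq2 and limma-voom.

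Under C16, Cstb fell in both genotypes, from 150 ± 6.14 to 72.5 ± 5.08 CPM in AE9a cells (log2 -1.10 ± 0.05, edgeR adjusted p = 3.4e-07) and from 171 ± 18.6 to 100 ± 13.9 CPM in WT cells (log2 -0.76 ± 0.13, adjusted p = 0.029). Cst3 fell in WT cells (log2 -0.89 ± 0.15, edgeR adjusted p = 0.03). Of these 2 calls in WT cells, 0 were left without replicate 1 or replicate 3 of either group and 1 without DMSO replicate 2. Cst7 was called as higher in AE9a cells by 0.12 ± 0.05 (adjusted p = 0.049), a call lost with DESeq2, RLE size factors, either other filter, the fit of all 18 libraries or any one of 5 of the 6 libraries left out. Of the 11 cathepsin genes 1 rose and 3 fell in AE9a cells, with 66% of all genes called. Ctsz rose by 0.32 ± 0.06 (edgeR adjusted p = 0.0011), and Ctso fell by 1.09 ± 0.12 (adjusted p = 2.2e-05). In WT cells 0 of 11 were called, with 2.96% of all genes called. There were 5 at an unadjusted p under 0.05, 3 by DESeq2 and 0 by limma-voom. Without WT replicate 2, 7 were called as lower, with 42.2% of all genes called.

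Genes of neutrophil stages were read from a pair of lists. The 9 genes of the primary granule list were not all genes of granule proteins, as Calr, Serpinb1a, Ms4a3 and Cst7 were among them. Of these 9, 0 rose and 8 fell under RE in AE9a cells (median log2 -0.74). Over all genes tested in AE9a cells, 28.8% were called for RE and 66% for C16. Elane (neutrophil elastase) fell from 449 ± 31 to 187 ± 24.5 CPM (n = 3, log2 -1.30 ± 0.16, edgeR adjusted p = 0.0017) and Mpo (myeloperoxidase) from 1450 ± 49.9 to 781 ± 66.7 CPM (log2 -0.93 ± 0.1, edgeR adjusted p = 0.00062). In the fit of all 18 libraries these calls were lost, 0 of 9, and 517 genes were called in all. Under C16 in AE9a cells 8 of the 9 rose and 1, Serpinb1a, fell, with Mpo at 5850 ± 840 CPM (log2 1.97 ± 0.1, edgeR adjusted p = 1.1e-06). Of 30 genes of maturing neutrophils 3 rose and 4 fell under RE in AE9a cells (median log2 0.08), a share below the 28.8% of all genes. Ngp rose by 0.57 ± 0.17 (edgeR adjusted p = 0.041) and Hp, the haptoglobin gene, fell by 1.19 ± 0.11 (edgeR adjusted p = 0.00041). The count of 3 that rose was 0 without any one of 5 of the 6 libraries and 6 without the third RE library. Under C16 4 of the 30 rose and 19 fell (median log2 -0.84), with Ltf (lactoferrin) from 217 ± 31.4 to 30.6 ± 12.6 CPM (log2 -2.87 ± 0.35, edgeR adjusted p = 0.00035). The fit of all 18 libraries left 0 that rose and 11 that fell, and 3 genes of the primary granule list that rose. In WT cells under RE 0 of these 9 and 0 of these 30 genes were called by edgeR (0 and 3 at an unadjusted p under 0.05, 0 by DESeq2 and limma-voom).

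Of 10696 other genes with a mean of at least 5 CPM, 10 followed the summed level of the members most closely, by Pearson r of log2 CPM over the 18 libraries. They were Gramd1a (0.89) and Slc2a1, the glucose transporter gene GLUT1 (0.89), Pcsk7, a proprotein convertase gene (0.87), S100a8, a calprotectin subunit of neutrophils (0.86), and Pglyrp1, a peptidoglycan recognition protein of neutrophil granules (0.86). Slc16a3, a lactate transporter gene, followed at 0.85, Inhba, the activin A subunit, and Samd8 at 0.84, and Mapk13 and Ipcef1 at 0.83. Within the 9 WT libraries all 10 were at 0.9 or above, and within the 9 AE9a libraries they ran from 0.34 (Mapk13) to 0.85 (Slc2a1). Without WT replicate 2 the range over the remaining 15 libraries was 0.56 to 0.74. By Spearman rank correlation over the 18 libraries, only Pcsk7 (rank 2) stayed among the first 10. The others ranked from 11 (Pglyrp1) to 231 (Ipcef1), so the choice of these genes depends on the measure. Pglyrp1, for example, had 54.4, 245 and 52.7 CPM in WT cells under RE and 42.6, 97.3 and 39.5 CPM under DMSO, and in AE9a cells 78.5, 74.7 and 53.6 CPM under RE against 53.7, 53.4 and 47.7 CPM under DMSO.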

How the data were processed

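The deposited files hold whole-number fragment counts per gene, 1 table per genotype, for 41079 genes (28108 with a fragment). Per the file headers, the authors counted read pairs over exons with featureCounts 1.6.2 from primary alignments, without strand, on GRCm39. The submitters' processing notes list featureCounts 2.0.3, the aligner HISAT2 2.1.0, the trimmer fastp 0.23.2, FastQC 0.11.9 and DESeq2. Which featureCounts version was used is not known. With primary alignments, a fragment that fits several copies is counted once, at 1 of them, so counts of near-identical stefin genes are uncertain.

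The 9 libraries of a genotype (compounds) or all 18 (genotypes, interaction) were fitted with edgeR 4.0.16: filterByExpr, TMM, quasi-likelihood F tests, Benjamini-Hochberg over all tested genes, threshold 0.05. Levels are CPM on the TMM sizes of the 18 libraries, with log2 CPM at a prior count of 2. DESeq2 1.42.0, limma-voom 3.58.1, other scalings, filters and library sets were alternatives. The fits were tested on simulated data, with changes planted only in genes with a mean of at least 5 CPM. That test does not cover rarer members, such as Stfa2l1, Stfa2 and Stfa3 in AE9a cells, or libraries that stand apart. Nothing is read from it for them. Members and lists were chosen with earlier results of these data known. Named list genes were the up to 4 largest called changes with at least 5 CPM in the higher group.

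Same-number deviations from group means correlated at 0.53 to 0.84 in WT cells and at 0.25 to 0.34 between AE9a DMSO and RE. These numbers therefore pair samples by the rule used, although in WT cells replicate 2, which stands apart, could give this alone. In WT replicate 1, Slc15a2 had 2, 0 and 212 fragments and Sema5b 0, 1 and 1034 under DMSO, C16 and RE. Whether WT replicate 1 under RE pairs with the other WT replicate 1 libraries is thus not settled. Ratios within a replicate number and the replicate block rest on this pairing. Between AE9a DMSO and C16 the correlations were 0.06 to 0.25, and each number matched its own number best there too. Whether the numbers pair these libraries is not settled. A floor of 3 fragments (0.109 to 0.192 CPM) covers counting error only. Leaving out AE9a C16 replicate 3 together with WT replicate 2, the sums without WT replicate 2, the filter without RE libraries and the motif CTTTAAAA were chosen after seeing the data. Coding sequences came from GENCODE M21 and promoters from RefSeq GRCm38.p6, by symbol, with 5 of 5 members matched; coordinates of the 2 builds were not mixed.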

Additional observations from a re-analysis of the deposited data

Results flagged for a closer look

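For 4 genes of the neighbourhood, family and neutrophil lists the C16 response differed between genotypes by the interaction term (AE9a minus WT, log2, edgeR adjusted p, n = 3 per group). They were 1 of 3 tested cystatin genes, 1 of 11 cathepsin genes, 1 of 9 genes of the primary granule list and 1 of 30 maturing neutrophil genes. Of 19 tested other genes within 500 kb 0 were called, and over all genes 13% were, so these counts do not set the lists apart. Cst3, which encodes cystatin C, differed by 1 ± 0.21 (adjusted p = 0.0071), with responses of 0.06 in AE9a and -0.89 in WT cells. Ctsh, a cathepsin that stefin A blocks, differed by 1.36 ± 0.33 (edgeR adjusted p = 0.016), with 0.2 and -1.10. Ly6g, a surface marker of neutrophils, differed by -1.91 ± 0.57 (edgeR adjusted p = 0.042), with -2.71 and -0.75. Its mean in AE9a cells under DMSO was only 1.85 CPM, and limma-voom called 0 of the 30 maturing neutrophil genes. Serpinb1a, an inhibitor of neutrophil serine proteases, differed by -1.18 ± 0.25 (edgeR adjusted p = 0.0084), with -1.76 and -0.52. No member of the stefin A cluster was among them.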

How the results depend on the processing

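Over the 24 tested results of single members, the alternative fits gave 388 values. Of these, 341 had the same direction and side of the threshold, 23 were now past it and 24 had the opposite sign. A DESeq2 value without an adjusted p was counted as not past the threshold. The causes were not tested. DESeq2 called 1 member for C16 in AE9a cells (0 by edgeR), 1878 genes for C16 and 75 for RE in WT cells (446 and 4), and 3082 for the genotype difference in the C16 response (2053). Without a filter beyond 1 fragment, 252 genes were called for C16 in WT cells. The fit of all 18 libraries called 517 genes for RE in AE9a cells (4235), 2989 for C16 in WT cells and 28 for RE in WT cells. The fit of the 6 libraries compared called 2 members between genotypes under DMSO and 1 gene in all under C16.

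With the replicate number as a block (pairing), 3638 genes and 1 member were called for C16 in WT cells, 75 genes for RE in WT cells, and 5792 genes and 2 members for the genotype difference in the C16 response. The block changed no other call of a member.

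Without all WT replicate 2 libraries, 6407 genes and 4 members were called for C16 in WT cells, 1331 genes for RE in WT cells, 8116 between genotypes under DMSO, 10478 and 2 members under C16, and 7965 for the genotype difference in the C16 response. Of these fits, the one under DMSO put Stfa1 at 0.094, Stfa3 at 4.160 and Cstdc5 at 0.005, and the difference in the C16 response put Stfa3 at -2.208. Also leaving out AE9a C16 replicate 3, a setting chosen after seeing the data, gave 8587 called genes and 2 called members (Stfa2 and Stfa2l1) under DMSO. Stfa1 at 0.086 and Stfa3 at 4.165 changed sign there and were not called. Under C16 10322 genes and 3 members were called (Stfa1, Cstdc5 and Stfa3, from which nothing is read). Stfa2 at 0.297 and Stfa2l1 at 0.408 changed sign and were not called. For the difference in the C16 response 7919 genes and 3 members were called (Stfa1, Cstdc5 and Stfa2l1). Stfa3 changed sign to -1.685 there and was not called.

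Leaving out 1 library at a time, the genes called ran from 2493 to 3882 for RE in AE9a cells, from 0 to 1304 for C16 in WT cells, from 0 to 1 for RE in WT cells, from 1525 to 8743 between genotypes under C16 and from 1060 to 6380 for the difference in the C16 response. Members called for C16 in AE9a cells ran from 0 to 3. The 3 came without the third C16 library, where 64.6% of all genes were called, and included Stfa3, from which nothing is read. In log2, C16 in AE9a cells ran from -1.804 to 0.093 for Stfa2 and from -0.539 to 0.304 for Stfa2l1. C16 in WT cells ran from -3.579 to 1.139 for Stfa1 and from -4.857 to 1.032 for Cstdc5, and RE in WT cells from -0.172 to 5.984 and from -0.589 to 6.827. Between genotypes under DMSO, Stfa1 ran from -2.862 to 0.112, Stfa3 from -3.768 to 4.159 and Cstdc5 from -3.598 to 0.018. Under C16, Cstdc5 ran from -0.197 to 3.241 and Stfa3 from -0.362 to 1.936. For the difference in the C16 response, Stfa2 ran from -0.270 to 1.827 and Stfa3 from -3.777 to 5.045. Counts under about 10 fragments, as for Stfa3 and Stfa2 in AE9a cells under DMSO, limit what can be seen of these members.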

Other observations

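A pair of genes beside the cluster had counts that set single libraries or replicates apart from the rest. Slc15a2 had 2, 151 and 184 fragments in WT cells under DMSO, 0, 74 and 113 under C16 and 212, 160 and 173 under RE, so that replicate 1 was near 0 under DMSO and C16 and not under RE. Sema5b, at the other side of the cluster, had 62, 56 and 41 fragments in AE9a replicate 2 under DMSO, C16 and RE and 0 in AE9a replicates 1 and 3. In WT cells it had 1034 fragments in replicate 1 under RE and at most 1 in any other library. Both genes were picked after their values had been seen. Whether the WT replicate 1 libraries of the 3 treatments share a source was not tested.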
